A study of Mus musculus with 12 samples.

Results

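The 32 genes described here are markers of resting, homeostatic astrocytes that belong neither to the perivascular endfoot nor to glutamate handling. They were taken by symbol from a list of known resting-astrocyte markers, and all 32 were found among the 48709 genes of the tables and had enough reads to be tested with 15571 genes in all. Astrocytes are the glial cells that supply neurons with metabolites, hold the brain's glycogen, bring in thyroid hormone, clear debris and keep the extracellular fluid steady. The genes of these tasks are highly expressed in the undamaged adult brain, and astrocytes near an injury are known to lose part of this programme while they switch on reactive genes such as Gfap.

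Brain cells of adult mice were selected with ACSA-2, an antigen on the astrocyte surface, and their RNA was sequenced. This was done 24 h after transient middle cerebral artery occlusion (tMCAO), in which the artery of 1 hemisphere is blocked and reopened. All mice were C57BL/6, aged 90 to 120 days, and carried Gfap-CreERT2+/-, in which the Gfap promoter drives a tamoxifen-activated Cre, together with a pair of floxed alleles of the targeted gene. The Astro-KO mice (numbers 295, 298 and 300) received tamoxifen and the wild-type mice (296, 297 and 474) corn oil, so effects of tamoxifen and of the deletion cannot be told apart. Each mouse gave 1 library of the occluded (ipsilateral) and 1 of the opposite (contralateral) hemisphere, which makes Astro-KO ipsilateral, Astro-KO contralateral, wild-type ipsilateral and wild-type contralateral groups of 3 libraries each. Values are listed in the mouse order given here.

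Libraries held 11187723 to 15780600 counts. Levels are given as CPM, the reads of a gene scaled to the library's total times its normalization factor (TMM, 0.937 to 1.05). Every genotype direction below rests on the labels. The ± after a log2 fold change is its SE, and adjusted p-values are from edgeR's quasi-likelihood test. Counts from 4 Y-linked genes reached 2733 and 2917 in the libraries of wild-type mouse 296 and at most 8 in any other library, so mouse 296 alone carried a male signature.

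The preparations held RNA of other cells beside astrocytes. The summed level of 12 oligodendrocyte markers spanned 10120 to 23620 CPM in Astro-KO ipsilateral, 5699 to 8012 CPM in Astro-KO contralateral, 14530 to 22730 CPM in wild-type ipsilateral and 18320 to 19810 CPM in wild-type contralateral libraries. That of 6 choroid plexus markers spanned 465 to 1173 CPM in Astro-KO ipsilateral, 688 to 1981 CPM in Astro-KO contralateral, 2428 to 5969 CPM in wild-type ipsilateral and 4069 to 7714 CPM in wild-type contralateral libraries, lower in every Astro-KO library than in every wild-type one. The 10 microglial markers summed to 367 to 2564 CPM in Astro-KO ipsilateral, 843 to 1397 CPM in Astro-KO contralateral, 1003 to 1523 CPM in wild-type ipsilateral and 504 to 639 CPM in wild-type contralateral libraries, and none of these 3 lists had a gene at 0 in any library. The 10 neuronal markers summed to at most 84.8 CPM. The 8 pericyte and smooth muscle markers summed to 1218 to 1626 CPM in Astro-KO ipsilateral, 1365 to 1642 CPM in Astro-KO contralateral, 758.2 to 1035 CPM in wild-type ipsilateral and 1254 to 1446 CPM in wild-type contralateral libraries, with none at 0 in any library. Like the homeostatic markers, they were lowest in the wild-type ipsilateral group without overlap. The part of these cells in the differences below was not tested, and in such bulk samples fewer astrocytes and less RNA per astrocyte cannot be told apart.

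**Figure D1:**
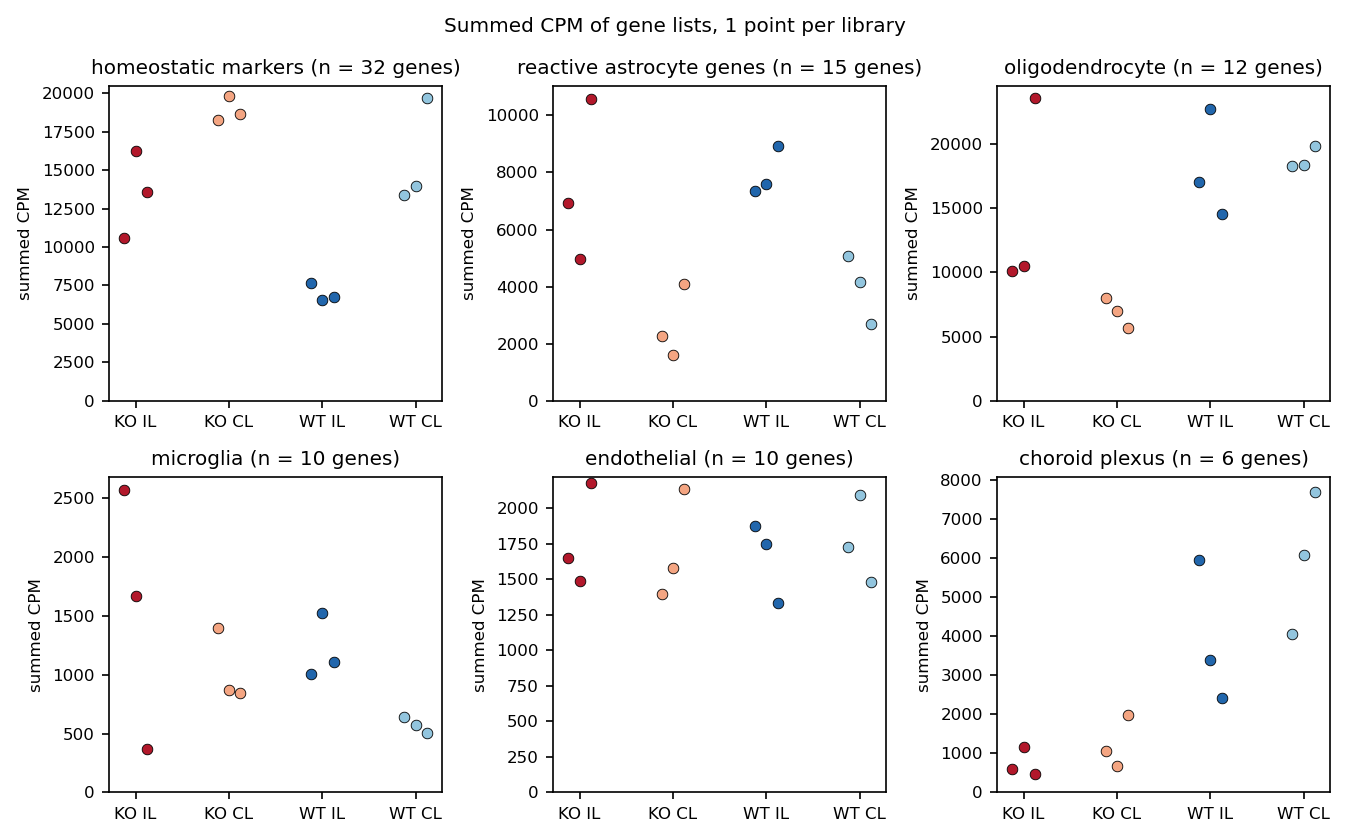
Summed CPM of 6 gene lists, 1 point per library, in Astro-KO ipsilateral (KO IL), Astro-KO contralateral (KO CL), wild-type ipsilateral (WT IL) and wild-type contralateral (WT CL) groups. The homeostatic markers sum to 6526 to 7642 CPM in wild-type ipsilateral libraries, below all 9 other libraries, and the choroid plexus markers separate the genotypes on both sides.

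RefSeq promoters (build GRCm38.p6, 250 bases before to 50 after the start) were matched by symbol for 31 members, which have 45 promoters among 32851. Those of 4 genes are shown. Cbs and Ntsr2 were chosen because they fell with small p-values on the occluded side of wild-type mice. Prodh was chosen because it fell in both genotypes, and Dio2 because its highest values came from 1 mouse. Capitals mark the hypoxia response core ACGTG, the Sp1 box GGGCGG, the STAT site TTCCNGGAA and the TATA box TATAAA, each searched on both strands. In Cbs and Ntsr2 the core lies in a palindrome and so matches on both strands at overlapping positions. The windows are chr17:31637156-31637455, minus strand for Cbs, chr12:16653220-16653519, plus strand for Ntsr2, chr16:18089141-18089440, minus strand for Prodh and chr12:90738989-90739288, minus strand for Dio2.
Cbs: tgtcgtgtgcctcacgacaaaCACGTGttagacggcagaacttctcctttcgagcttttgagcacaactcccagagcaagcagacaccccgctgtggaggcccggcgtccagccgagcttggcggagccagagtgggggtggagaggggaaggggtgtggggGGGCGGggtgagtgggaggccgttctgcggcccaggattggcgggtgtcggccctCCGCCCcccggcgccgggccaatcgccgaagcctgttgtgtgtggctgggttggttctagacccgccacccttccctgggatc
Ntsr2: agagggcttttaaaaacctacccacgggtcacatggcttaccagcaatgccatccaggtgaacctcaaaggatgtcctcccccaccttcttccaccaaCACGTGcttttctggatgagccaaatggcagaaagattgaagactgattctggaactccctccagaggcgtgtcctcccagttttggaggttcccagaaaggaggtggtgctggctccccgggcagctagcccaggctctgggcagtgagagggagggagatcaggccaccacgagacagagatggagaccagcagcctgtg
Prodh: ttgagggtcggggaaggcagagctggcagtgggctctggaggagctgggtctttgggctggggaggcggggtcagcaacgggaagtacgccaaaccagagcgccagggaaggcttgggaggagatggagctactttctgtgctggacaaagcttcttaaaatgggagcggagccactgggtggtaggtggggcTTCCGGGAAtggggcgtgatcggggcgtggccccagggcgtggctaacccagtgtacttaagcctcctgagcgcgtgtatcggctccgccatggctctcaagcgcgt
Dio2: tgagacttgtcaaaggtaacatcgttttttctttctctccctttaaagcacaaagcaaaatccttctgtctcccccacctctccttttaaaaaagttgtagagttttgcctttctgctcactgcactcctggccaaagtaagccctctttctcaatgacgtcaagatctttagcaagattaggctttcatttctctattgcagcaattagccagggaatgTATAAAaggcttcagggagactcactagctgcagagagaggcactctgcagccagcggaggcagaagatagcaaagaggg

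Across the members' promoters the ACGTG core was present in 8 of 45 (17.8%, against 19.6% of all promoters), the TATA box in 5 (11.1%, against 13.6%) and the STAT letters in 1, that of Prodh (2.22%, against 1.15%). The Sp1 box stood in 25 of 45 promoters (55.6%, against 35.7%), which belong to 18 of 31 genes. The median GC content was 55.0% in the members' promoters and 52.7% in all. The short NFI site TTGGCA stood in 9 promoters (20.0%, against 14.1%), which belong to 7 genes. Windows of the same gene can overlap, as those of Fam107a and Daam2 do, so 1 site can be counted more than once. The full NFI site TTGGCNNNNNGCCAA and the SOX letters ACAATGG were in 0 of 45 (0.0365% and 3.66% of all promoters). NFI and SOX factors are known regulators of astrocyte genes, and a match or its absence in this window is only a description of the letters.

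Levels per length spanned a wide range. In wild-type contralateral libraries the highest members were Ndrg2, a stress-responsive cytoplasmic protein of astrocytes, at 2723 ± 751 TPM (mean ± SD, n = 3), Gpr37l1, a G protein-coupled receptor, at 2167 ± 773 TPM, and Ntsr2, a neurotensin receptor, at 1503 ± 556 TPM. Their SDs overlap, but within each of the 3 libraries Ndrg2 was above Gpr37l1 and Gpr37l1 above Ntsr2. The lowest were Slc15a2, a peptide transporter, at 57.5 ± 18.9 TPM, the nuclear receptor Rorb at 14.9 ± 5.1 TPM and Ranbp3l, a Ran-binding protein, at 8.88 ± 2.73 TPM. Within each of the 3 libraries Slc15a2 lay above Rorb and Rorb above Ranbp3l. Gpr37l1 had 1286, 1728 and 1462 CPM in Astro-KO ipsilateral, 2193, 2115 and 1968 CPM in Astro-KO contralateral, 496, 612 and 729 CPM in wild-type ipsilateral and 1007, 1443 and 2178 CPM in wild-type contralateral libraries. Its wild-type ipsilateral values were below all others. Slc15a2 had 109.9, 226 and 122 CPM in Astro-KO ipsilateral, 190.5, 246 and 221 CPM in Astro-KO contralateral, 42.9, 63.8 and 73.2 CPM in wild-type ipsilateral and 90.4, 124 and 183 CPM in wild-type contralateral libraries, and Rorb had 63.5, 87.2 and 80.0 CPM in Astro-KO ipsilateral, 65.2, 77 and 67.8 CPM in Astro-KO contralateral, 28.2, 28.8 and 43 CPM in wild-type ipsilateral and 40.0, 41.2 and 74.8 CPM in wild-type contralateral libraries. Slc15a2 was lowest in the wild-type ipsilateral group without overlap, while the wild-type sides of Rorb overlapped. Together the 32 genes made up 1.14 to 1.70% of TPM in Astro-KO ipsilateral, 2.07 to 2.23% in Astro-KO contralateral, 0.652 to 0.749% in wild-type ipsilateral and 1.26 to 1.98% in wild-type contralateral libraries. The wild-type ipsilateral share was thus below every library of the other groups.

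**Figure D2:**
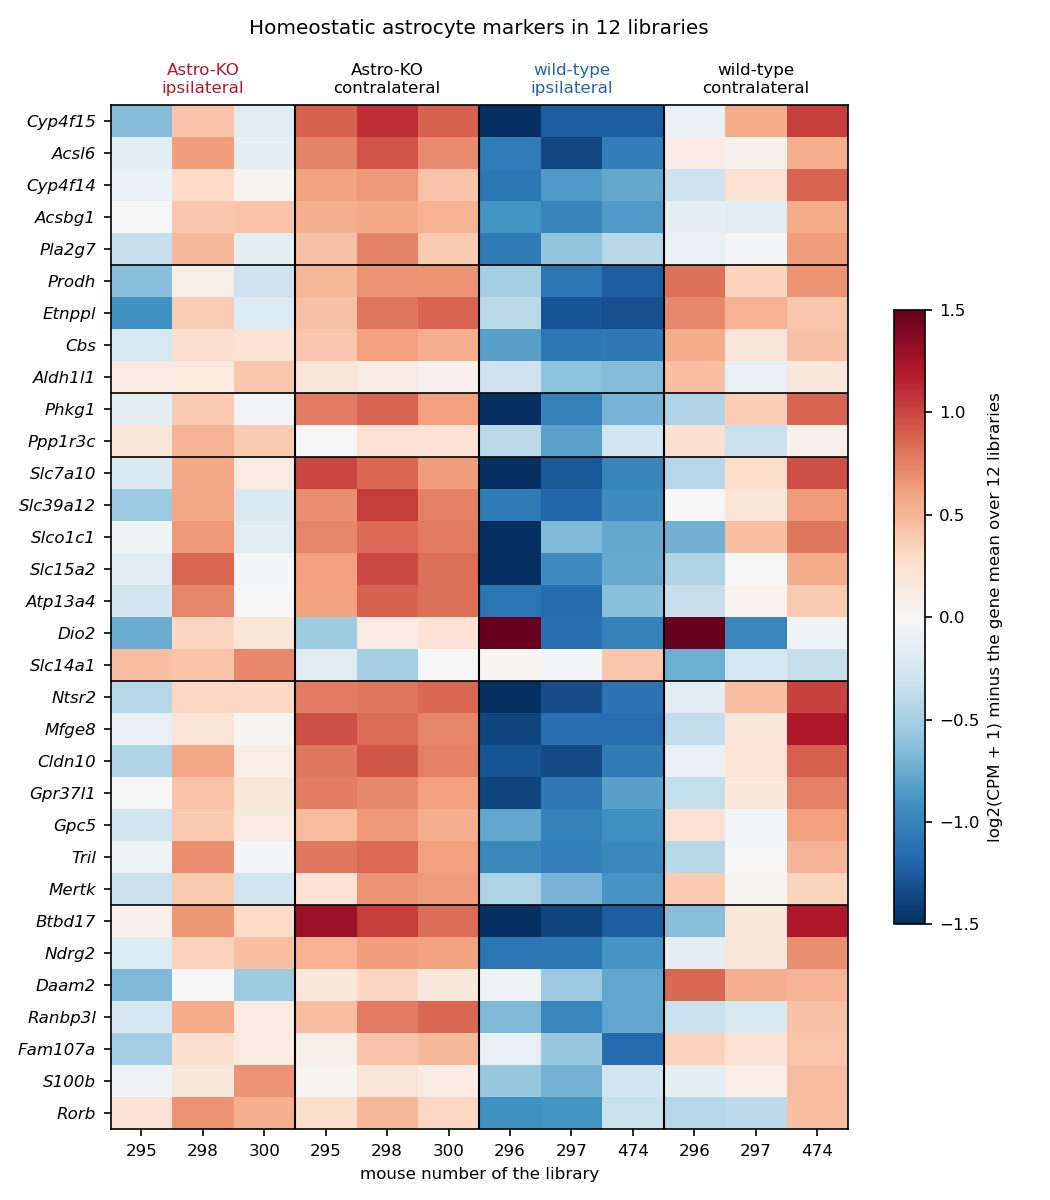
Level of each of the 32 markers in each of 12 libraries, as log2(CPM + 1) minus the gene's mean over the libraries, with horizontal lines between role groups and a colour scale that is capped at its ends. The 3 wild-type ipsilateral columns are low for most rows, Slc14a1 is higher on the ipsilateral side of both genotypes, and Dio2 is high in both libraries of mouse 296.

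The first comparison was that of the 2 hemispheres in wild-type mice. On the occluded side 28 of 32 members fell, 22 of them by more than 2-fold, 1 rose (Slc14a1) and 3 did not pass the test. In this comparison 9.54% of all genes tested were called lower and 9.61% higher. The members' median log2 fold change was -1.24, against -0.06 over all genes tested. All 3 ipsilateral libraries lay below all 3 contralateral ones for 27 members, as they did for 16.6% of all genes. In the same comparison 4 of 8 pericyte and smooth muscle markers fell and 0 rose, with a median of -0.60. These were the contractile myosin Myh11 (-1.47), Vtn (-0.79), Rgs5 (-0.64) and Notch3 (-0.55). Of 8 oligodendrocyte precursor markers 2 fell, and of 6 ependymal markers 0 passed although all 6 had negative values, with a median of -0.71. Of 10 endothelial markers 0 passed, with a median of -0.06. Other lists had positive medians. Of 12 oligodendrocyte markers 2 rose and 0 fell, with a median of 0.20. The microglial, the monocyte and macrophage, and the neutrophil markers had medians of 1.14, 0.69 and 1.26, and 0 passed. Choroid plexus and neuronal markers had medians of -0.70 and -0.50, also with 0 passing. The part of these cells in the members' fall was not tested.

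The count of 28 was 10 without mouse 297, 17 without mouse 474 and 27 without mouse 296. Those fits called 2.25%, 4.34% and 10.3% of all genes lower, in the same order. With each mouse as a replicate block it was 30, Ppp1r3c and Rorb being added, in a fit that called 15.1% of all genes lower.

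All 5 enzymes of lipid and fatty acid metabolism fell, with log2 fold changes of -1.90 to -0.88. The fatty acid hydroxylase Cyp4f15 had 104, 222 and 145 CPM in Astro-KO ipsilateral, 305, 352 and 306 CPM in Astro-KO contralateral, 58, 69.6 and 69.3 CPM in wild-type ipsilateral and 154, 243 and 339 CPM in wild-type contralateral libraries. Wild-type ipsilateral libraries were the lowest of the 4 groups and overlapped none of them, and the log2 fold change between wild-type sides was -1.90 ± 0.30 (adjusted p = 0.00222). Acsl6, which activates polyunsaturated fatty acids for membrane lipids, had 496, 859 and 505 CPM in Astro-KO ipsilateral, 937, 1073 and 913 CPM in Astro-KO contralateral, 269, 216 and 272 CPM in wild-type ipsilateral and 608, 585 and 816 CPM in wild-type contralateral libraries. It was again lowest in the wild-type ipsilateral group, with a log2 fold change of -1.41 ± 0.23 (adjusted p = 0.00252). The acyl-CoA synthetase Acsbg1 had a log2 fold change of -1.04, the hydroxylase Cyp4f14 of -1.27 and Pla2g7, which breaks down platelet-activating factor, of -0.88. The call of Pla2g7 was lost in 10 of 19 alternative fits. Cyp4f14 and Cyp4f15 are related in sequence, so their counts are uncertain to the extent that reads fit both.

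The 4 enzymes of amino acid and one-carbon metabolism also all fell, with log2 fold changes of -1.55 to -0.70. Cbs, cystathionine beta-synthase of the transsulfuration pathway, had 239, 336 and 329 CPM in Astro-KO ipsilateral, 374, 432 and 413 CPM in Astro-KO contralateral, 159, 132 and 134 CPM in wild-type ipsilateral and 415, 322 and 382 CPM in wild-type contralateral libraries. No wild-type ipsilateral library reached any other library, and the fold change, -1.40 ± 0.17 (adjusted p = 0.000898), had the smallest p of all members. Prodh, the mitochondrial proline dehydrogenase, had 129.9, 214 and 162 CPM in Astro-KO ipsilateral, 283, 323 and 321 CPM in Astro-KO contralateral, 141, 93.7 and 84.9 CPM in wild-type ipsilateral and 357, 255 and 322 CPM in wild-type contralateral libraries. Both ipsilateral groups lay below both contralateral ones, and the wild-type difference was -1.55 ± 0.23 (adjusted p = 0.00176). Etnppl, which breaks down phosphoethanolamine, had a log2 fold change of -1.50, and Aldh1l1, a folate enzyme widely used as an astrocyte marker, of -0.70.

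Of the 2 genes of glycogen control, 1 fell. Phkg1, the catalytic subunit of phosphorylase kinase, which promotes glycogen breakdown, had 101, 146 and 108 CPM in Astro-KO ipsilateral, 192, 204 and 171 CPM in Astro-KO contralateral, 37, 54.6 and 68.2 CPM in wild-type ipsilateral and 81.5, 145 and 204 CPM in wild-type contralateral libraries. The wild-type sides did not overlap, although the wild-type contralateral library of mouse 296 was near the ipsilateral ones of the other mice, and the difference was -1.43 ± 0.30 (adjusted p = 0.00836). An exon of Phkg1 overlaps Sumf2 on the opposite strand, and the strand of counting is not given in the sources used here, so its counts may include reads of Sumf2. Ppp1r3c, a glycogen-targeting subunit of protein phosphatase 1 that promotes glycogen synthesis, had 139.5, 176 and 162 CPM in Astro-KO ipsilateral, 123, 144 and 143 CPM in Astro-KO contralateral, 93.3, 70.4 and 99.8 CPM in wild-type ipsilateral and 148, 97.9 and 129.7 CPM in wild-type contralateral libraries. The wild-type sides overlapped, and the log2 fold change of -0.51 ± 0.18 (adjusted p = 0.0641) did not pass.

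Of 7 transporters and genes of thyroid hormone supply, 5 fell, 1 rose and 1 did not pass. Slc7a10, which carries D-serine and other small neutral amino acids, had 213, 367 and 272 CPM in Astro-KO ipsilateral, 497, 452 and 384 CPM in Astro-KO contralateral, 84.2, 103 and 125 CPM in wild-type ipsilateral and 184, 301 and 486 CPM in wild-type contralateral libraries. Its wild-type ipsilateral libraries were below all others, and the log2 fold change between sides was -1.64 ± 0.32 (adjusted p = 0.00547). The zinc importer Slc39a12 had 207, 454 and 261 CPM in Astro-KO ipsilateral, 492, 621 and 512 CPM in Astro-KO contralateral, 145, 134 and 157 CPM in wild-type ipsilateral and 305, 345 and 472 CPM in wild-type contralateral libraries. It showed the same order of groups in wild-type mice, with a log2 fold change of -1.37 ± 0.26 (adjusted p = 0.00563). Slc7a10 shares an exon overlap with Lrp3 on the opposite strand, so part of its counts may be reads of Lrp3. In all, 8 members overlap an exon of another annotated gene, and the same caution holds for the others. On the opposite strand lie Gm12224 for Acsl6, 1700071M16Rik for Pla2g7, Gm26512 for Dio2, Gm16499 for Tril, Gm20713 for Gpc5 and Gm15756 for Aldh1l1, which also shares exon bases with Gm45901 on its own strand.

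Slco1c1, the thyroxine transporter, fell by 1.31 on the log2 scale although its groups overlapped, and 11 of 19 alternative fits lost the call. Its lowest value on each wild-type side was that of mouse 296, 80.5 CPM ipsilaterally and 179.5 CPM contralaterally. Slc15a2 fell by 1.15 and the P5-type ATPase Atp13a4 fell by 1.01, and 7 and 6 of 19 alternative fits lost these calls. The urea transporter Slc14a1 moved the other way. Slc14a1 had 170.0, 167 and 205 CPM in Astro-KO ipsilateral, 109, 87.7 and 124 CPM in Astro-KO contralateral, 127, 123 and 164 CPM in wild-type ipsilateral and 74.2, 103 and 97.6 CPM in wild-type contralateral libraries. The ipsilateral libraries of each genotype lay above its contralateral ones without overlap, and the ipsilateral level was higher in 6 of 6 mice. The rise was 0.59 ± 0.18 (adjusted p = 0.038) in wild-type mice. Its sign held in all 19 alternative fits, and the call was lost in 10 of them, leaving out mouse 296, 297 or 474 among these.

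Dio2, the deiodinase that makes active thyroid hormone in astrocytes, followed a mouse and not a side. Dio2 had 135, 283 and 257 CPM in Astro-KO ipsilateral, 156, 249 and 265 CPM in Astro-KO contralateral, 807, 103 and 112 CPM in wild-type ipsilateral and 773, 115 and 218 CPM in wild-type contralateral libraries. Both libraries of mouse 296 stood far above the other 10, none of which passed 282.6 CPM, and its log2 fold change between wild-type sides was -0.11 ± 0.79 (adjusted p = 0.938). Mouse 296 is also the one with the Y-linked counts, and the part of sex in the level of Dio2 was not tested.

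All 7 surface receptors, adhesion and engulfment genes fell, with log2 fold changes of -1.81 to -0.93. Ntsr2 had 379.9, 634 and 632 CPM in Astro-KO ipsilateral, 877, 894 and 930.2 CPM in Astro-KO contralateral, 181, 202 and 238 CPM in wild-type ipsilateral and 458, 698 and 1031 CPM in wild-type contralateral libraries. Wild-type ipsilateral libraries were below every other library, and the difference between the wild-type sides was -1.81 ± 0.28 (adjusted p = 0.00214). Gpc5, a glypican of the cell surface, had 98.3, 158 and 132 CPM in Astro-KO ipsilateral, 167, 189 and 176 CPM in Astro-KO contralateral, 69.9, 59.1 and 63.2 CPM in wild-type ipsilateral and 141, 117 and 184 CPM in wild-type contralateral libraries. It was likewise lowest there, with a log2 fold change of -1.20 ± 0.19 (adjusted p = 0.00252). The log2 fold change was -0.93 for the engulfment receptor Mertk and -1.70 for Mfge8, the secreted bridge between dying cells and phagocytes. It was -1.64 for the claudin Cldn10, -1.33 for Gpr37l1 and -1.07 for Tril, an accessory protein of Toll-like receptors.

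Of 7 signalling, nuclear and cytoskeletal genes, 6 fell. Ndrg2 had 1319, 1929 and 2069 CPM in Astro-KO ipsilateral, 2177, 2340 and 2307 CPM in Astro-KO contralateral, 711, 717 and 824 CPM in wild-type ipsilateral and 1365, 1702 and 2458 CPM in wild-type contralateral libraries. The wild-type ipsilateral libraries were again lowest of all, with a log2 fold change of -1.29 ± 0.23 (adjusted p = 0.00365). Btbd17, a BTB domain protein, had 101, 152 and 117 CPM in Astro-KO ipsilateral, 236, 197 and 172 CPM in Astro-KO contralateral, 18.2, 36.2 and 39.9 CPM in wild-type ipsilateral and 60.9, 108 and 220.3 CPM in wild-type contralateral libraries, and at -2.05 ± 0.41 (adjusted p = 0.00698) its fall was the largest of the 32 in this fit. Its wild-type contralateral values spread widely among mice, so the size of that fall is imprecise. On the log2 scale the formin Daam2 fell by 1.07, the actin-associated Fam107a fell by 0.89, Ranbp3l fell by 0.94 and the calcium-binding S100b fell by 0.68, and Rorb, at -0.64 ± 0.25 (adjusted p = 0.0913), did not pass. Of 19 alternative fits, 12 lost the call of Ranbp3l, 8 that of Fam107a, 7 that of S100b and 1 that of Daam2.

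**Figure D3:**
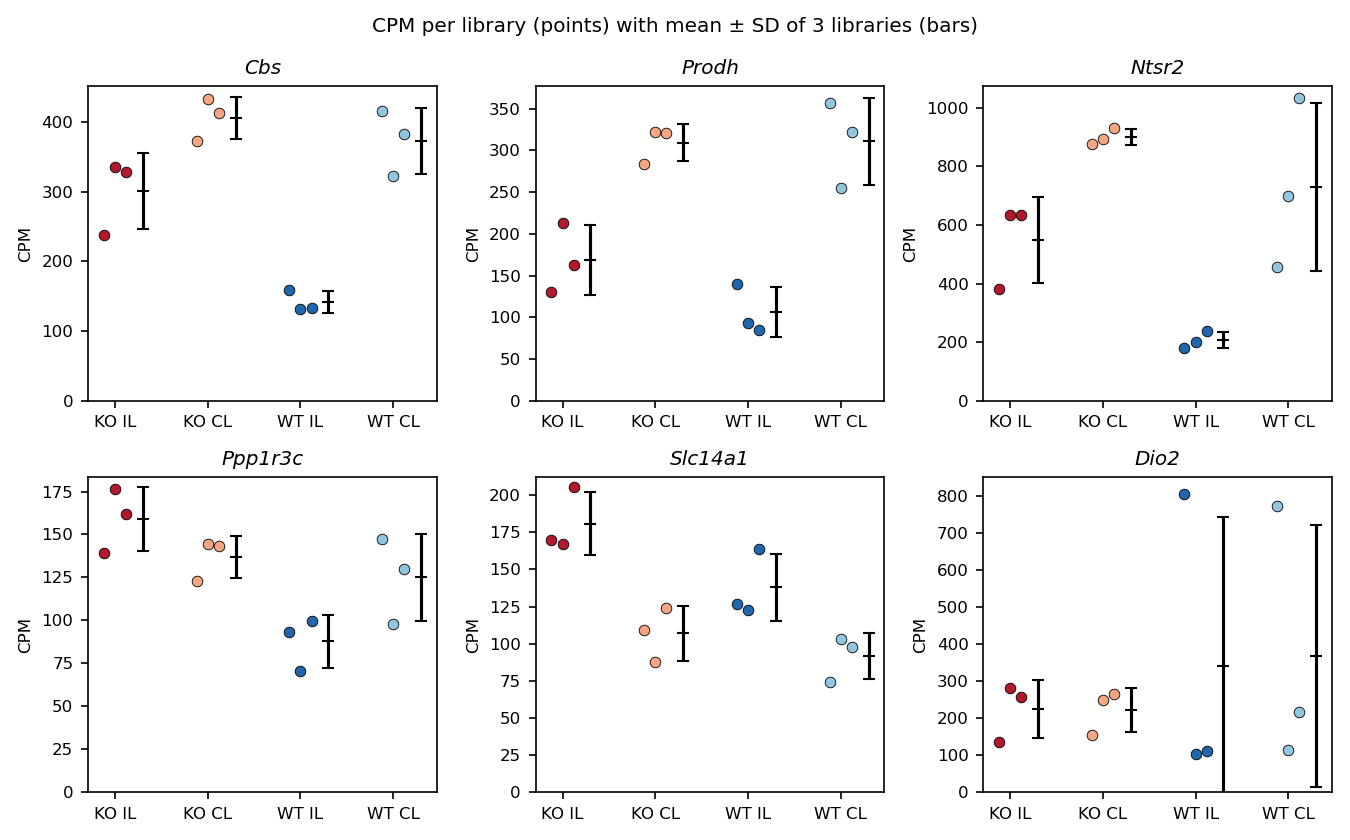
CPM of 6 markers in each library, coloured by group, with black bars for the mean ± SD of 3 libraries (the SD of Dio2 in wild-type ipsilateral libraries exceeds its mean and is drawn to 0). Cbs and Ntsr2 are lowest in the wild-type ipsilateral group without overlap. Prodh has its lowest mean there but overlaps the Astro-KO ipsilateral group. Slc14a1 is higher ipsilaterally in both genotypes, and the high Dio2 values of 806.6 and 772.7 CPM belong to mouse 296.

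In Astro-KO mice the side difference had the same sign for most members but few passed the test. Of 32 members, 26 had a negative log2 fold change and 6 a positive one. Prodh fell, 1 of 32 members in a comparison that called 0.841% of all genes lower, and Slc14a1 rose, 1 of 32 where 5.45% of all genes were called higher. The median of the members was -0.54, against -0.01 over all genes tested, and 19 members had non-overlapping lower ipsilateral values, against 20.2% of all genes. With each mouse as a replicate block, 16 members were called lower, among them Cbs, Ntsr2, Cyp4f15, Acsl6, Cldn10 and Mertk, where that fit called 5.1% of all genes lower.

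The fall of Prodh in Astro-KO mice was -0.87 ± 0.22 (adjusted p = 0.0405), and the rise of Slc14a1 was 0.76 ± 0.18 (adjusted p = 0.0303). The values of both genes given above do not overlap between the Astro-KO sides. Of 19 alternative fits, 8 lost the call of Prodh and 10 that of Slc14a1. Cyp4f15, at -1.03 ± 0.29 (adjusted p = 0.0558), and Slc39a12, at -0.82 ± 0.26 (adjusted p = 0.0805), did not pass. The count of members called lower was 10 without the Astro-KO ipsilateral library of mouse 298, which had the highest summed level of the 3, and 0 without any of the 5 other Astro-KO libraries. The share of all genes called lower in these fits is not given here. A change in the members therefore cannot be told from a change in calls in general.

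The other 5 members with a positive log2 fold change there did not pass the test. Aldh1l1 had 328, 333 and 399 CPM in Astro-KO ipsilateral, 342, 324 and 313 CPM in Astro-KO contralateral, 242, 195 and 191 CPM in wild-type ipsilateral and 409.8, 277 and 336 CPM in wild-type contralateral libraries. Its Astro-KO sides overlapped, with a log2 fold change of 0.12 ± 0.16 (adjusted p = 0.682). S100b had 201, 236 and 333 CPM in Astro-KO ipsilateral, 213, 239 and 227 CPM in Astro-KO contralateral, 140.5, 127 and 171 CPM in wild-type ipsilateral and 191, 224 and 288 CPM in wild-type contralateral libraries, and its Astro-KO difference was 0.18 ± 0.20 (adjusted p = 0.599). Ppp1r3c had 0.22 ± 0.18 (adjusted p = 0.444), Rorb 0.14 ± 0.24 (adjusted p = 0.751) and Dio2 0.01 ± 0.79 (adjusted p = 0.994). The signs of Aldh1l1, S100b, Rorb and Dio2 turned in a limma-trend fit of log2(TPM + 1), which gave negative values. That fit differs from the main one in unit, gene filter and model, and which of these turned the signs was not tested.

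Within single mice the picture was graded. The number of members with a lower ipsilateral level was 30, 27 and 27 of 32 in Astro-KO mice 295, 298 and 300, and 30, 31 and 31 in wild-type mice 296, 297 and 474. The median difference was -0.79, -0.28 and -0.55 on the log2(CPM + 0.5) scale in the Astro-KO mice and -0.98, -1.10 and -1.55 in the wild-type mice, so no Astro-KO mouse reached the smallest wild-type median. In 26 members the ipsilateral level was lower in all 6 mice, and Slc14a1 was higher in all 6.

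**Figure D4:**
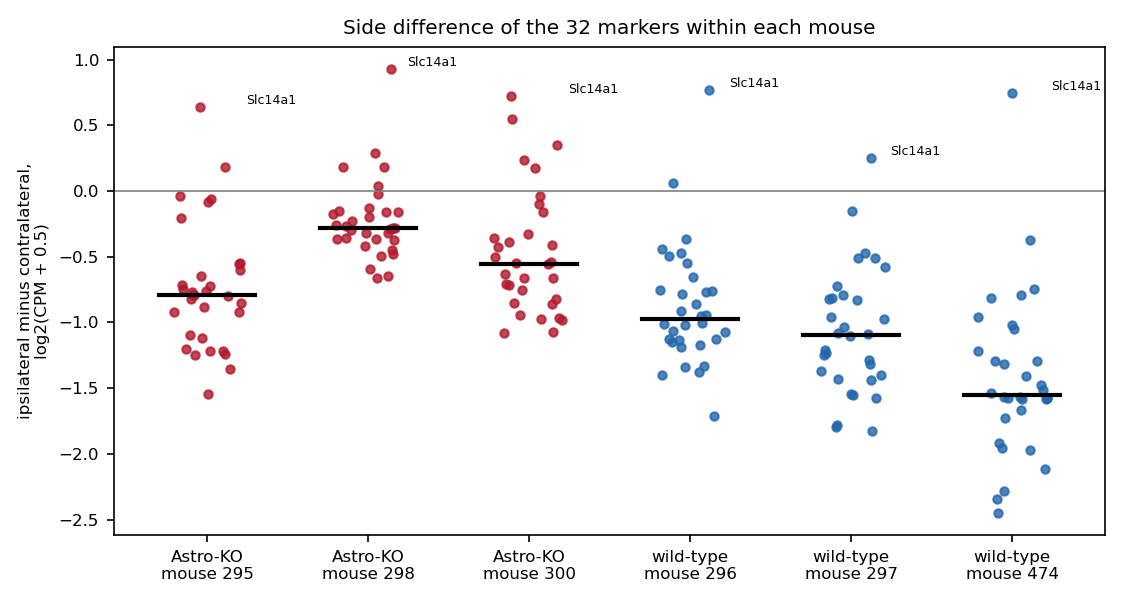
Ipsilateral minus contralateral level, log2(CPM + 0.5), of each of the 32 markers (points) within each mouse, with the median as a black bar and Slc14a1 labelled. The medians are -0.79, -0.28 and -0.55 in Astro-KO mice and -0.98, -1.10 and -1.55 in wild-type mice.

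Members with a larger fall in wild-type mice tended to have a larger one in Astro-KO mice, the side differences of the 2 genotypes, which share no library, having a Pearson r of 0.884 and a Spearman rho of 0.845 across the 32 genes. Genes are not independent replicates, all 32 share the same libraries, and the same values over 15571 genes were 0.794 and 0.747. Between the wild-type difference and the log2 mean TPM of the gene in wild-type contralateral libraries, r was -0.29 and rho -0.21 across the same genes.

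On the occluded side, Astro-KO libraries held more of most members than wild-type libraries. Here 23 of 32 members were higher and 0 lower, in a comparison that called 4.33% of all genes higher and 1.98% lower. The median log2 fold change of Astro-KO over wild-type was 1.15, against 0.02 over all genes tested, and all 3 Astro-KO values lay above all 3 wild-type values for 27 members, as for 13.7% of all genes. Markers of other cells moved in this comparison too. Of 8 pericyte and smooth muscle markers 4 were higher and 0 lower, with a median of 0.61, namely Vtn (1.25), Abcc9 (0.92), Notch3 (0.77) and Rgs5 (0.71). All 6 ependymal markers had positive values, with a median of 0.38, but 0 passed. Of 8 oligodendrocyte precursor markers 1 was higher, Cspg4 (0.99), while 2 of 12 oligodendrocyte and 3 of 6 choroid plexus markers were lower. The part of these cells in the members' difference was not tested.

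The comparison of genotypes on the occluded side uses the same wild-type ipsilateral libraries as the one between wild-type sides, so these comparisons are not independent. The count of 23 depended strongly on single libraries. It was 6 without the Astro-KO ipsilateral library of mouse 298, 12 without that of mouse 300, 9 without the wild-type ipsilateral library of mouse 296 and 0 without that of mouse 297. Leaving out both libraries of a mouse gave 11 (Astro-KO mouse 295), 1 (298), 2 (300), 19 (wild-type mouse 296), 0 (297) and 22 (474). Without mouse 297, 0 of 15785 genes were called at all. The fits without mouse 296 and without mouse 474 called 3.93% and 5.35% of all genes higher. For the other leave-outs the share of all genes called is not given here. In those, a loss among the members cannot be told from a loss of calls in general.

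The lipid enzymes accounted for 4 of the 23. Acsbg1 had 624, 833 and 844 CPM in Astro-KO ipsilateral, 918, 933 and 903 CPM in Astro-KO contralateral, 336, 315 and 347 CPM in wild-type ipsilateral and 573, 561 and 923 CPM in wild-type contralateral libraries. All Astro-KO ipsilateral values exceeded all wild-type ipsilateral ones, by 1.20 ± 0.20 (adjusted p = 0.00878). For Acsl6 the difference was 1.30 ± 0.23 (adjusted p = 0.0105), for Cyp4f15 1.26 ± 0.29 (adjusted p = 0.0273) and for Cyp4f14 1.01 ± 0.25 (adjusted p = 0.034), from the values above. Of the amino acid and one-carbon enzymes Cbs, at 1.09 ± 0.16 (adjusted p = 0.00719), had the smallest p of the members, and Aldh1l1 was higher by 0.76 ± 0.17 (adjusted p = 0.0216). Both glycogen genes were higher, Ppp1r3c by 0.86 ± 0.18 (adjusted p = 0.0183) and Phkg1 by 1.15 ± 0.30 (adjusted p = 0.0439).

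Among transporters, Slc7a10 (1.45), Slc15a2 (1.35), Atp13a4 (1.17) and Slc39a12 (1.08) were higher as log2 fold changes. Among surface genes, Ntsr2 (1.40), Cldn10 (1.39), Gpr37l1 (1.28), Mfge8 (1.25), Tril (1.24) and Gpc5 (1.02) were higher. Btbd17 had the largest fitted difference of the members, 1.97 ± 0.41 (adjusted p = 0.0193), followed in its group by Ndrg2 (1.24), Rorb (1.20), Ranbp3l (1.14) and S100b (0.81).

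The remaining 9 members did not pass on the occluded side. Slco1c1 (1.20), Etnppl (0.79), Pla2g7 (0.71), Prodh (0.67), Mertk (0.64), Fam107a (0.55) and Slc14a1 (0.39) had positive log2 fold changes. Daam2 was close to 0, at 0.06 ± 0.22 (adjusted p = 0.91), and Dio2 had -0.60 ± 0.79 (adjusted p = 0.717) with the wild-type mouse 296 in its wild-type mean.

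**Figure D5:**
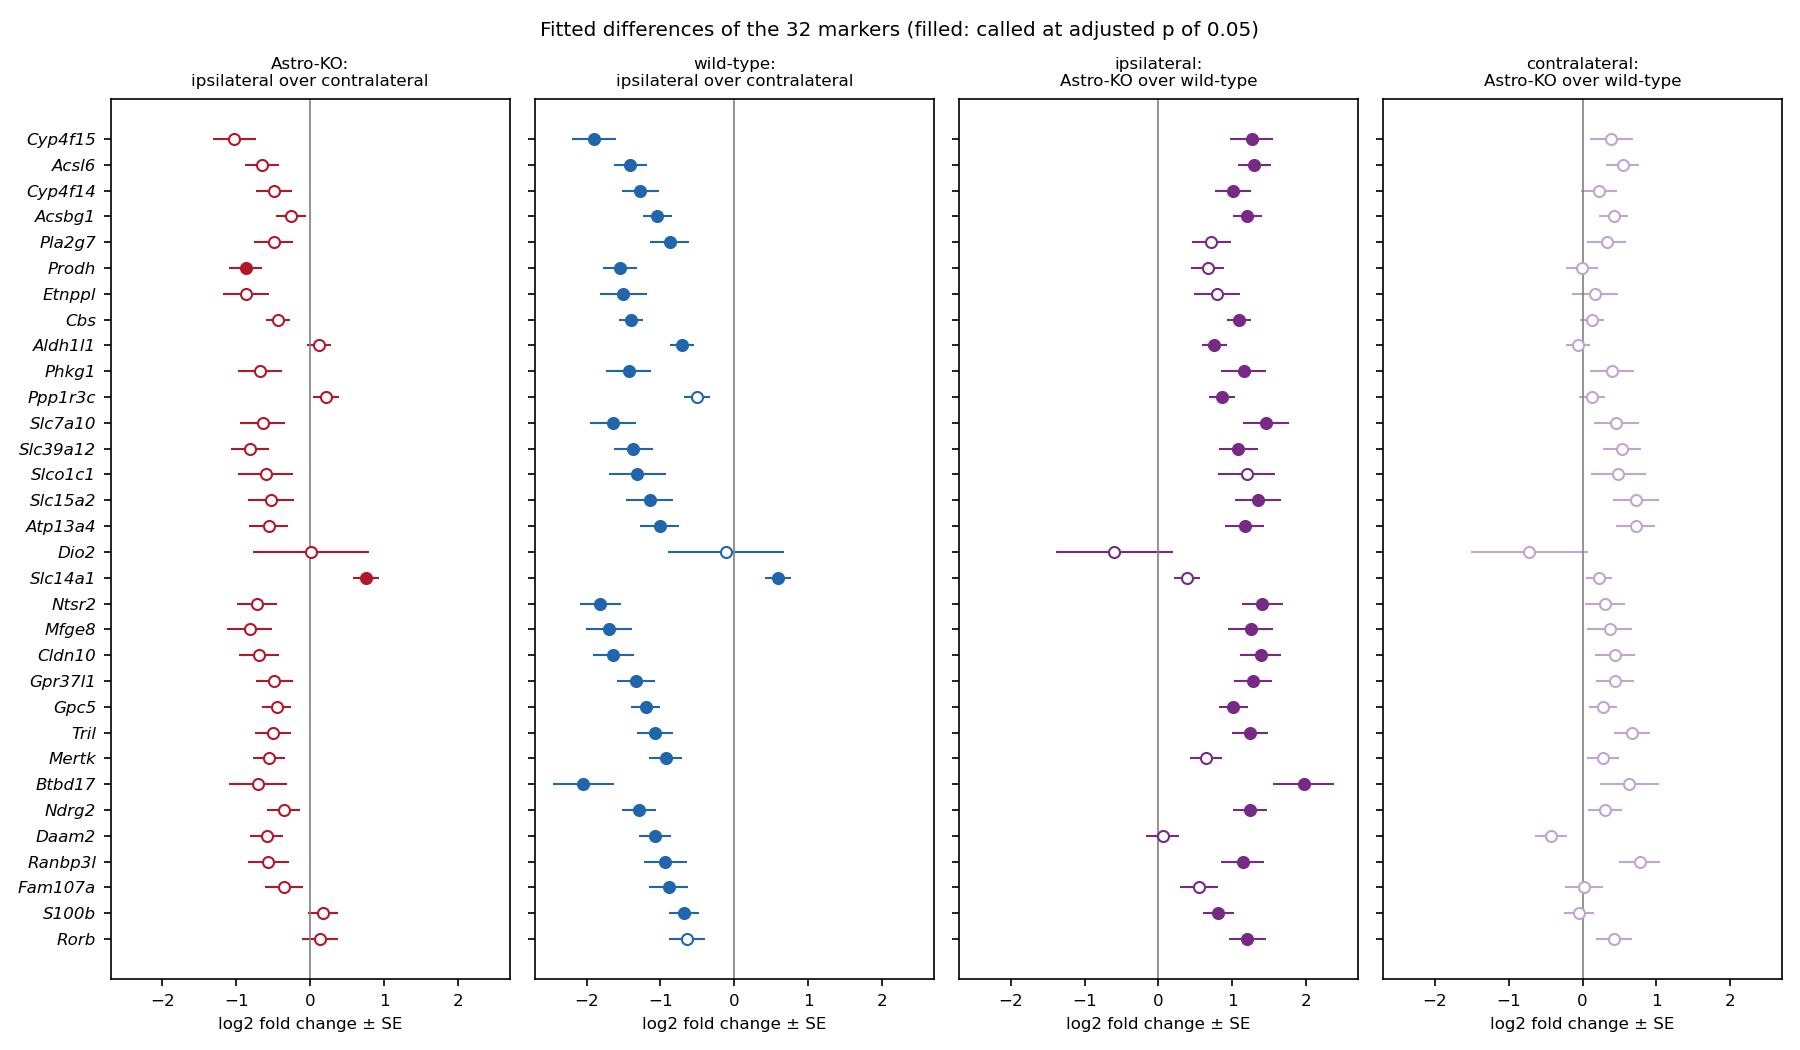
Log2 fold change ± SE of each of the 32 markers in 4 comparisons, filled where the adjusted p was below 0.05. Wild-type side differences are mostly filled and negative, Astro-KO over wild-type on the ipsilateral side is mostly filled and positive, and the contralateral comparison has no filled point.

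On the opposite side no member passed between genotypes. The comparison called 0.0835% of all genes higher and 1.41% lower. DESeq2 also called 0 members, and 5 members had an unadjusted p below 0.05 in edgeR. The median was 0.35, with 27 members positive, and 6 had Astro-KO values all above the wild-type ones, as 11.0% of all genes did. In Daam2 alone all Astro-KO values lay below the wild-type ones, as for 13.5% of all genes. Its difference was -0.43 ± 0.22 (adjusted p = 0.403). The smallest p-values were those of Tril, Atp13a4, Ranbp3l and Acsl6. Tril had 374, 631 and 382 CPM in Astro-KO ipsilateral, 673, 699.9 and 593 CPM in Astro-KO contralateral, 198, 190.1 and 199 CPM in wild-type ipsilateral and 291, 389.6 and 552 CPM in wild-type contralateral libraries. All 3 Astro-KO contralateral values exceeded all 3 wild-type ones, and the difference was 0.67 ± 0.24 (adjusted p = 0.229). Atp13a4 had 156, 313 and 190.2 CPM in Astro-KO ipsilateral, 288, 349 and 336 CPM in Astro-KO contralateral, 87.9, 84 and 122 CPM in wild-type ipsilateral and 149, 195 and 247 CPM in wild-type contralateral libraries, likewise without overlap, with a difference of 0.72 ± 0.26 (adjusted p = 0.232). Ranbp3l had 6.96, 12.9 and 9.36 CPM in Astro-KO ipsilateral, 12, 15.2 and 16.1 CPM in Astro-KO contralateral, 4.96, 3.79 and 4.52 CPM in wild-type ipsilateral and 6.52, 7.06 and 11.8 CPM in wild-type contralateral libraries, also without overlap, and its contralateral difference was 0.77 ± 0.28 (adjusted p = 0.233). For Acsl6 the difference was 0.54 ± 0.22 (adjusted p = 0.296). The choroid plexus and oligodendrocyte markers given above also separated the genotypes on this side.

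Whether the side difference itself differed between genotypes was tested by the interaction, and no gene passed in edgeR. The interaction was positive for all 32 members in edgeR, with a median of 0.75 against 0.06 over all genes, but 0 of 32 passed, and 0.0% of all genes were called higher or lower. An unadjusted p below 0.05 was reached by 15 members and by 763 of 15571 genes, and DESeq2 called 7 genes and 0 members. In 18 members every Astro-KO mouse had a smaller fall or a larger rise than every wild-type mouse, against 10.6% of all genes. Cbs had the smallest p, with a difference of 0.96 ± 0.23 (adjusted p = 0.948), followed by Aldh1l1 with 0.82 ± 0.23 (adjusted p = 0.948), S100b with 0.86 ± 0.29 (adjusted p = 0.948) and Ndrg2 with 0.94 ± 0.32 (adjusted p = 0.948). A difference between genotypes in the response to occlusion thus did not pass for any member.

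Other lists of the astrocyte programme were counted on the occluded side of wild-type mice. Of 10 endfoot and gap junction genes 7 fell and 0 rose, with a median log2 fold change of -0.65, for example the adhesion protein Hepacam (-0.71) and the connexin Gjb6 (-1.23). Of 8 genes of glutamate uptake and the glutamine cycle 5 fell and 1 rose, with a median of -0.82, for example Gpt2 (-0.92), the glutamine transporter Slc38a3 (-1.22) and Glud1 (-0.72). Of 14 tested astrocyte transcription factors 8 fell and 1 rose, with a median of -0.56, for example Lhx2 (-1.34), Id4 (-1.14) and Emx2 (-1.16). Of 15 reactive astrocyte genes 6 rose and 0 fell, with a median of 0.85, for example Ptx3 (4.15), the intermediate filament Nes (1.53) and the oncostatin receptor Osmr (2.97). The median of the 32 members, -1.24, lay below those of the first 3 lists, a difference between lists that was not tested. In Astro-KO over wild-type ipsilateral libraries, 5 of 10 endfoot and gap junction genes were higher (median 0.74), 4 of 8 glutamate genes (median 0.71) and 8 of 14 transcription factors (median 0.65), with 0 lower in each of these 3 lists. Of the reactive genes 0 of 15 passed there, with a median of -0.21. Whether the members, with 23 of 32 and a median of 1.15, differ from the first 3 lists was not tested.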

How the data were processed

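Values came from 12 tables that the authors deposited, 1 per library, each with whole-number read counts, TPM and RPKM for 48709 genes, of which 48349 were found in GENCODE vM21. The genome build was mm10 per the submitters' processing notes. No aligner, counting tool or strand setting is given in the sources used here. For 31 of 32 members deposited counts and RPKM stood in a fixed ratio over all libraries (tolerance 0.1%). The ratio was below 0.6 of that implied by the annotated length for Cbs, Prodh, Phkg1, Ntsr2 and Ranbp3l. For Cbs, Prodh, Ntsr2 and Ranbp3l this corresponds to a shorter length used by the authors for RPKM, the same in every library. Phkg1 alone varied in this ratio, with an implied length of 3210.8 to 3232.0 bases.

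Counts were fitted in R 4.3.3 with edgeR 4.0.16 (filterByExpr minimum count 10, TMM, robust quasi-likelihood) over 12 libraries with 4 group terms and 8 residual degrees of freedom. P-values are two-sided, Benjamini-Hochberg adjusted over 15571 genes, called at 0.05. The ± after a log2 fold change is its SE. Each group holds 3 mice. Pairing is by the animal number in the labels, and after removing group means the 2 libraries of mice 295, 298, 300, 296, 297 and 474 correlated at 0.294, 0.346, 0.155, 0.628, 0.016 and 0.357.

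Per-library values are given for the 2 members of each role group with the smallest p between wild-type sides, the 4 with the smallest p in each other comparison, the 3 highest and 3 lowest TPM levels and members with a low count to RPKM ratio. Dio2 was added after its values were seen, as were the promoters shown. The members, lists and tests were chosen with earlier results of these data known. Alternatives were other scalings and filters, DESeq2 1.42.0, limma 3.58.1 (voom, and trend on log2(TPM + 1) and log2(TPM + 0.1)), only the groups compared, the mouse as a block, and each library or mouse left out. The block was a term per mouse in edgeR for sides and interaction. Between genotypes it was a within-mouse correlation of 0.362 in limma-voom. The main and block edgeR fits were also run on simulated counts drawn without a mouse effect. Changes were put only into the wild-type ipsilateral group, and only the wild-type side comparison was checked. The result of that check is not given here. Promoters came from RefSeq. Some planned results, the level of the targeted gene among them, are not reported here.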

Additional observations from a re-analysis of the deposited data

Results flagged for a closer look

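Ppp1r3c, the glycogen-targeting phosphatase subunit, was higher on the ipsilateral side in all 3 Astro-KO mice and lower there in all 3 wild-type mice, the mean difference of Astro-KO minus wild-type mice being 0.718 on the log2(CPM + 0.5) scale. The opposite directions drew attention to it. In the fit over all genes its interaction was 0.73 ± 0.25 (unadjusted p = 0.0131, edgeR adjusted p = 0.948), so it did not pass, and its part in the samples' other differences was not tested.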

How the results depend on the processing

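All 28 falls between wild-type sides kept their sign in every alternative, and the 23 rises in Astro-KO over wild-type ipsilateral libraries did too. With the replicate block, pairing the sides of each mouse, 16 members were called lower between Astro-KO sides and 30 between wild-type sides. That fit called 5.1% and 15.1% of all genes lower. Between genotypes the block was instead a within-mouse correlation in a limma-voom fit. It called 22 members higher ipsilaterally, where 4.21% of all genes were called higher. DESeq2 and a fit restricted to the groups being compared each called 5 members lower between Astro-KO sides. The fits of log2(TPM + 1) and log2(TPM + 0.1) called 3 lower and 0 higher. Of all genes, DESeq2 called 3.29% lower there, the restricted fit 4.64% and the fit of log2(TPM + 1) 1.11%. The single rise between wild-type sides, Slc14a1, was 0 without the filter on low counts and with only the 2 groups. Between genotypes ipsilaterally only the 2 groups gave 8, where 0.949% of all genes were called higher. Both TPM fits gave 14, and that of log2(TPM + 1) called 2.12% of all genes higher. Causes were not tested.

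Leaving out single libraries or mice gave 10 to 28 members lower and 0 to 1 higher between wild-type sides, 0 to 10 lower and 0 to 1 higher between Astro-KO sides, 0 to 22 higher between genotypes ipsilaterally and 0 to 1 contralaterally.

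Signs turned only for members that were not called. Between Astro-KO sides the TPM fits gave -0.06 for Aldh1l1, -0.041 and -0.043 for Rorb, -0.022 for S100b and -0.189 and -0.19 for Dio2, for which upper-quartile scaling gave -0.026, voom -0.013 and the replicate block -0.02. Leave-outs spanned -0.031 to 0.201 for Aldh1l1, -0.07 to 0.333 for S100b and -0.19 to 0.279 for Dio2. Between wild-type sides Dio2 spanned -1.749 to 1.033. Between genotypes ipsilaterally Dio2 was 0.024 with voom, 0.021 with the replicate block and -1.027 to 1.065 in leave-outs, and Daam2 was -0.031 in the TPM fits and -0.178 to 0.293 in leave-outs. Contralaterally Aldh1l1 was 0.083 and S100b 0.1 in the TPM fits. Prodh was 0.027 with upper-quartile scaling, 0.001 without the filter, 0 with voom and with the replicate block, and 0.13 and 0.131 in the TPM fits. Contralateral leave-outs spanned -0.021 to 0.63 for Cyp4f14, -0.191 to 0.094 for Aldh1l1, -0.133 to 0.104 for Prodh, -0.018 to 0.268 for Ppp1r3c, -1.148 to 0.424 for Dio2, -0.061 to 0.14 for Fam107a and -0.174 to 0.162 for S100b. For the interaction, Slc14a1 was -0.044 and -0.045 in the TPM fits and -0.001 to 0.326 in leave-outs, Dio2 -1.02 to 1.769 and Ranbp3l -0.012 to 0.613. Only 3 mice per group limit what these fits can resolve.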
